A study of Mus musculus with 68 samples.

Results

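A (A/J) is 1 of the 8 inbred founder strains of the Collaborative Cross whose embryonic fibroblasts (MEFs) were exposed to tunicamycin (TM), and all genes of its table were analysed, 3 TM libraries against 3 control libraries. These are 6 of the 68 libraries of the series and 6 of the 40 founder libraries. TM blocks the first step of N-linked glycosylation. Glycoproteins then misfold in the endoplasmic reticulum (ER), and the unfolded protein response (UPR) is switched on. A control cells received 0.1% DMSO and A TM cells 2 ug/ml of TM in DMSO, both for 4 h, and no transgene is named for either group. The cells were primary MEFs, described in the methods as a mix, in each strain, from several female embryos of 1 litter. The 3 replicates of a group are therefore cultures of 1 cell preparation, and p-values measure the spread between those cultures. The other 7 strains (129S1Sv/ImJ or 129, C57BL/6J or B6, CAST/EiJ or CAST, NOD/ShiLtJ or NOD, NZO/H1LtJ or NZO, PWK/PhJ or PWK, and WSB/EiJ or WSB) had the same treatments, with 2 or 3 libraries per treatment.

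The UPR has 3 sensors in the ER membrane. IRE1 (Ern1) splices the Xbp1 messenger RNA and cleaves other RNAs at the ER, ATF6 is cut in the Golgi to release a transcription factor, and PERK (Eif2ak3) slows translation while ATF4 and then CHOP (Ddit3) are made. XBP1 and ATF6 raise genes for folding and for removal of misfolded proteins (ER-associated degradation, ERAD), ATF4 and CHOP raise genes for amino acid supply and stress control, and UPR signalling can also activate NF-kB, which drives chemokine and cytokine genes in fibroblasts.

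A value below is the reads of a gene relative to the reads of its library, scaled by the authors between libraries and not divided by gene length, so levels are compared between libraries of 1 gene and not between genes. Reads on genes ran from 11312093 to 18257862 in the A controls and from 9864728 to 17135054 in the A TM libraries, against 7091923 to 21530282 in the other strains where whole reads could be recovered. Of 13197 genes listed, 12724 reached 0.5 in 2 or more A libraries and were tested. All 12 fibroblast markers were present in A, with a summed value between 22740.0 and 50290.0 in the 6 libraries. The Y-linked genes Ddx3y, Kdm5d, Eif2s3y and Uty and the X inactivation RNA Xist were all read in every A library, with Ddx3y between 14.3 and 41.2 and Xist between 61.0 and 212, as in the other strains, although the cells are described as female. The endothelial markers, 5 genes, summed to at most 4.51 in an A library. Epithelial markers, 4 genes, summed to 21.3 to 65.7, mostly Krt18, and muscle markers, 3 genes, to 12.5 to 27.7, mostly Des. Both lay within the range of the other strains. Myeloid and neural markers are given below.

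The spread between replicates was larger in A than in the other 7 strains, as the libraries were deposited. Per the methods, the authors had dropped outlying libraries. A and PWK kept 6 libraries each and the other strains 4 or 5. A, with none dropped, is therefore set against strains that mostly lost libraries. The median SD of log2 values between replicates, within treatment, was 0.350 in A, 0.238 in 129, 0.235 in NZO, 0.221 in WSB, 0.173 in NOD, 0.152 in PWK, 0.147 in CAST and 0.105 in B6. Within A it was 0.281 among controls and 0.342 among TM libraries. Controls 2 and 3 were close, with a Pearson correlation of 0.9963 across 9877 genes and a chi-square of 1.91 per degree of freedom against sampling noise, where the 22 replicate pairs of the other strains that were compared had 1.90 to 88.4. Control 1 stood apart from both, at 96.3 and 116, and TM 2 stood apart from TM 1 and TM 3, at 106 and 105. TM 1 and TM 3 differed by 32.4. Without control 1 and TM 2 the median SD of A was 0.172, between PWK and NOD.

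**Figure D1:**
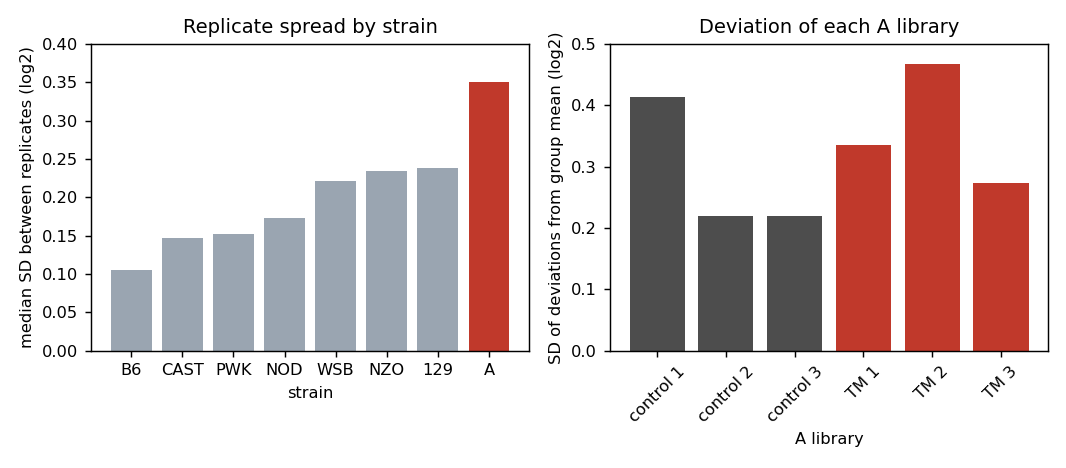
Left, median SD between replicates of log2(value + 0.1) for each strain, over the 12724 genes tested in A. Right, for each A library, the SD over 9877 genes of its deviations from its group mean in log2. A has the tallest bar on the left (0.350), and control 1 (0.413) and TM 2 (0.467) the tallest on the right.

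Among the genes that varied most between A replicates at a mean value of at least 10, 2 patterns were seen. Klk14, a secreted serine protease, read 289, 48.7 and 6.92 in controls 1, 2 and 3 and 5.54, 5.85 and 173 in TM 1, 2 and 3. Rhox8, a homeobox gene on the X chromosome, read 53.7, 9.93 and 1.98 in the controls and 0.923, 1.15 and 36.2 with TM. Both were highest in control 1 and TM 3, and in both the groups overlapped. Shroom4 and Cpeb4 were instead low in TM 2, at 2.61 and 1.46 against 36.9 to 47.0 and 20.5 to 28.4 in the other TM libraries. Both have long transcripts, with a median annotated length of 4839 and 5281 bases, longer than in 94.8% and 95.9% of genes tested. Across genes, the deviation of TM 2 from its group mean went with transcript length at a Spearman correlation of -0.42, that of control 1 at -0.24 and that of TM 1 at 0.42, a description over genes that share each library. With the values corrected for transcript length and GC content, 43 of the 44 raised genes described next were among 63 raised.

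In A, TM raised 44 genes (0.346% of 12724) and lowered 1 (0.00786%), at a limma adjusted p below 0.01 and at least 1.5 fold. All 44 had every TM value above every control value, which held for 1331 genes in all (10.5%), and 1335 genes (10.5%) had every TM value below. Without regard to the test, 1041 genes (8.18%) were up and 1275 (10.0%) down by 1.5 fold. The median change of all genes was -0.04 on the log2 scale. The count depended on the libraries used. Without control 1 and TM 2 there were 126 raised (1.00% of 12601) and 25 lowered genes, and 43 of the 44 remained among the 126. Leaving out 1 library at a time gave between 5 (without TM 3) and 32 (without control 1) raised genes, with 21 and 24 without controls 2 and 3 and 10 and 16 without TM 1 and TM 2, and the count of lowered genes was 1 without control 1 and 0 without any of the other 5 libraries. The 44 had a median transcript length of 1690 bases and 51.1% GC, against 1469 bases and 50.9% over all genes tested.

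**Figure D2:**
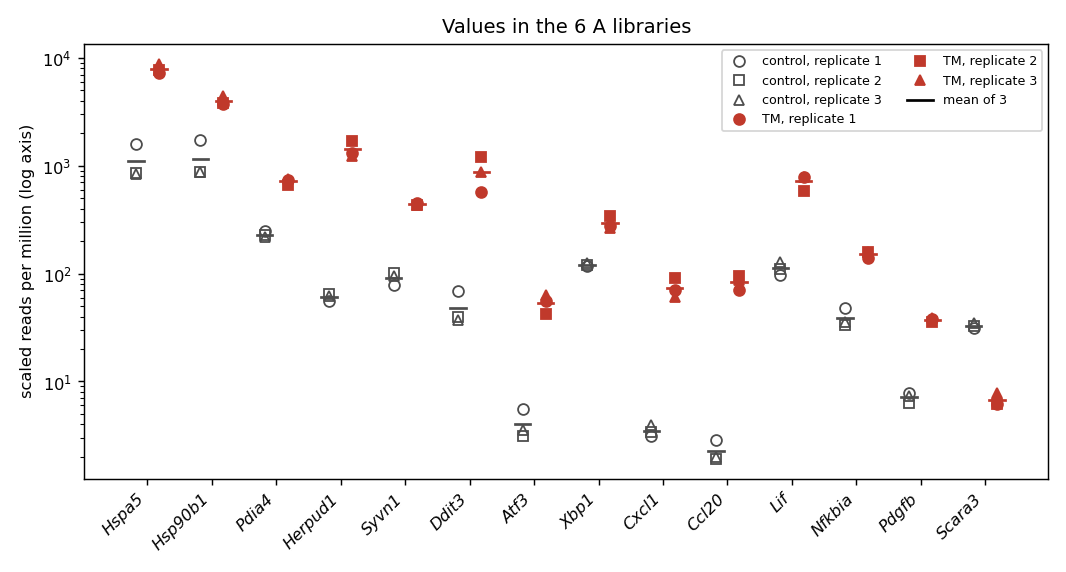
Values of 14 named genes in each of the 6 A libraries, in scaled reads on a log axis, with open symbols for control and filled for TM, a symbol shape for each replicate number and a line at the mean of 3. Every TM symbol lies above the controls of its gene, except for Scara3, where all 3 lie below, and control 1 is the highest control for Hspa5 (1587), Hsp90b1 (1721) and Ddit3 (68.7).

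ER chaperones, the proteins that hold and fold new chains in the ER, were the list with the largest median rise among those of the UPR. Of 14 tested, 3 rose (Hspa5, Sdf2l1 and Dnajb9), 10 had all TM values above the controls, and the median change was 1.60 in log2. Hspa5 (BiP), the main ER chaperone and the brake on all 3 sensors, lies on chromosome 2 at 34771970 to 34777547 (GRCm38, + strand). It read 1587, 861 and 836 in the controls and 7198, 7750.5 and 8816 with TM. Control 1 was the highest control, the groups did not overlap, and the change was 7.55 fold (log2 2.92, SE 0.29, limma adjusted p = 0.00283). Sdf2l1, a partner of BiP's co-chaperones, read 22.4, 15.1 and 15.6 in the controls and 140.2, 260.5 and 173 with TM (log2 3.40, SE 0.28, limma adjusted p = 0.00134). Dnajb9 (ERdj4), a co-chaperone that brings BiP to IRE1, read 11.5, 15.5 and 13.3 and then 136, 138 and 75.3 (log2 3.06, SE 0.28, limma adjusted p = 0.00184). In none of the 3 did the groups overlap, and TM 3 was the lowest TM library for Dnajb9.

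Other chaperones missed the threshold. Creld2, an ER-resident protein made under ER stress, read 151, 56.8 and 58.1 in the controls and 369.6, 559.6 and 648 with TM, with no overlap (log2 2.69, limma adjusted p = 0.0208). Hsp90b1 (GRP94), the ER member of the HSP90 family, read 1721, 872 and 880.2 and then 3736, 3801 and 4465 (log2 1.86, limma adjusted p = 0.0275). In both genes control 1 was the highest control. Without control 1 and TM 2, 9 of the 14 chaperones rose and the list median was 1.70. Over the list the changes ran from 0.07 to 3.40.

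Of 9 genes for disulfide bond formation, Ero1lb and Pdia4 rose, and the list median was 0.91. Pdia4, a protein disulfide isomerase, had the tightest replicates of the UPR genes described here, with 246, 226 and 217 in the controls and 733, 668 and 747 with TM (log2 1.64, SE 0.19, residual SD 0.0891, limma adjusted p = 0.00522). Ero1lb, an oxidase that recharges these isomerases, read 3.23, 2.83 and 3.80 and then 20.1, 14.7 and 15.9 (log2 2.33, SE 0.24, limma adjusted p = 0.00295). P4hb (PDI), 1945, 1393 and 1393 in the controls and 1729.9, 2077 and 2055 with TM, had overlapping groups, and the lowest change in the list was -0.11.

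Of 16 ERAD genes, 3 rose (Herpud1, Derl3 and Syvn1), 7 had all TM values above the controls, 1 was down by 1.5 fold (-0.75, not called), and the median was 0.65. Herpud1, which assembles the HRD1 ubiquitin ligase complex, lies on chromosome 8 at 94386438 to 94395377 (+ strand) and read 55.7, 64.8 and 62.2 in the controls and 1321, 1701 and 1226 with TM (23.0 fold, log2 4.53, SE 0.21, limma adjusted p = 8.51e-05). Its controls lay close together and far below every TM value. Derl3, a channel subunit of that complex, rested on 6, 5 and 8 reads in the controls and 173, 160 and 172 with TM, a ratio of 29.7 (95% exact conditional Poisson interval 18.8 to 49.8, counting error only). Syvn1 (HRD1), the ligase itself, read 77.9, 101 and 94.6 and then 449, 428 and 436 (log2 2.27, SE 0.19, limma adjusted p = 0.00144). Its partner Sel1l read 109, 137 and 134 and then 515, 276 and 421, with no overlap and a limma adjusted p of 0.0272. Without control 1 and TM 2 the ERAD list median was 0.29, with 4 genes raised.

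None of the sensor genes was called, where 0.346% of all genes were raised. Of the 9 sensors and UPR transcription factors, Xbp1 alone had every TM value above every control, against 10.5% of all genes. Xbp1, the factor spliced by IRE1, read 118, 120.5 and 125 in the controls and 277, 344 and 267 with TM (log2 1.28, SE 0.19, limma adjusted p = 0.0215), and without control 1 and TM 2 it was the 1 gene of the list that was called. Ern1 read 47.0, 59.8 and 60.2 and then 92.8, 38.4 and 79.3. Eif2ak3 read 26.4, 34.4 and 30.7 and then 47.7, 30.9 and 50.3, and Atf6 read 68.7, 96.7 and 99.6 and then 152, 85.9 and 116. In these 3 sensors TM 2 was the lowest TM library and the groups overlapped. Their log2 changes were 0.25, 0.47 and 0.40, with limma adjusted p of 0.833, 0.475 and 0.605.

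In the ATF4 and CHOP branch, 6 of 15 genes rose (Ddit3, Gadd45a, Atf3, Chac1, Trib3 and Ppp1r15a), 11 had all TM values above the controls and the median was 1.27. Ddit3 (CHOP), a transcription factor of late UPR signalling on chromosome 10 at 127290774 to 127296288 (+ strand), read 68.7, 39.6 and 37.2 in the controls and 572, 1199 and 876 with TM (18.1 fold, log2 4.18, SE 0.34, limma adjusted p = 0.00134). Reads from Mars, annotated on the opposite strand over part of Ddit3, cannot be told apart here. Atf3, a stress-induced factor downstream of ATF4, read 5.57, 3.10 and 3.57 and then 55.5, 42.4 and 63.0 (log2 3.71, SE 0.28, limma adjusted p = 0.0013). Gadd45a, which acts in growth arrest, read 15.4, 7.38 and 5.44 and then 103, 167 and 147 (log2 3.98, SE 0.38, limma adjusted p = 0.00222). Control 1 was the highest control for all 3.

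Chac1, which breaks down glutathione, read 19.4, 35.5 and 30.1 in the controls and 213, 271 and 187 with TM (log2 3.00, SE 0.27, limma adjusted p = 0.00184). Trib3, a pseudokinase that feeds back on ATF4, read 32.9, 24.2 and 26.9 and then 166, 244 and 197 (log2 2.84, SE 0.22, limma adjusted p = 0.00134). Ppp1r15a (GADD34), which restores translation, read 112, 84.6 and 88.5 and then 323, 419.7 and 378 (log2 1.98, SE 0.21, limma adjusted p = 0.00381). Atf4 messenger RNA read 402, 283 and 278 and then 623, 961 and 689.6, with no overlap and a limma adjusted p of 0.0687. The changes of the list ran from 0.00 to 4.18. Without control 1 and TM 2, 9 of the 15 rose and the median was 1.36.

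The supply genes under ATF4 gave no call in the 6 libraries. Of 18 amino acid genes tested, 0 passed the limma test, 13 had all TM values above the controls, 12 were up by 1.5 fold and the median was 0.86, and without control 1 and TM 2 the count was 3. Slc3a2, the heavy chain of amino acid exchangers, read 276, 233 and 231 in the controls and 522, 746 and 553 with TM (log2 1.29, limma adjusted p = 0.034). Slc7a11, the cystine carrier, chosen after its values were seen, read 10.2, 55.9 and 53.1 and then 80.8, 90.3 and 37.8, so control 1 was low, TM 3 lay below controls 2 and 3, and the groups overlapped. Of 20 cytosolic tRNA synthetases 0 were called, 10 were up by 1.5 fold and the median was 0.60, with changes from -0.06 to 0.85. The translocon and glycosylation machinery (23 genes, median 0.40) and ER to Golgi transport (19 genes, median 0.19) had 0 calls, with 6 and 1 genes up by 1.5 fold. Over all genes 0.346% were raised and 8.18% were up by 1.5 fold.

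Scara3, a membrane scavenger receptor and a known substrate of IRE1-dependent decay, was the only gene lowered in A. It lies on chromosome 14 at 65919394 to 65953935 (- strand) and read 31.2, 32.7 and 34.7 in the controls and 6.16, 6.17 and 7.90 with TM (log2 -2.28, SE 0.21, limma adjusted p = 0.00184). Control 1 and TM 2 did not stand apart for this gene. Of the 7 decay targets tested, 4 had all TM values below the controls and the list median was -0.61. Col6a1, a collagen chain, read 750.1, 484 and 502 and then 321, 247 and 421 (log2 -0.82, limma adjusted p = 0.248).

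The largest decreases with no overlap and a control mean of at least 10 were, after Scara3, those of Mgat5, Retreg3, Npas4 and Mgat3, none of them called. Retreg3, an ER-phagy receptor, read 43.0, 31.9 and 35.3 in the controls and 12.2, 6.90 and 13.0 with TM (log2 -1.81, limma adjusted p = 0.025). Npas4, an activity-regulated factor, read 8.80, 15.3 and 14.1 and then 3.59, 3.66 and 4.01 (log2 -1.70, limma adjusted p = 0.0261). Mgat5, which adds a branch to N-glycans, read 18.1, 30.8 and 34.2 and then 15.2, 1.67 and 14.7, and Mgat3, which adds the bisecting sugar, read 10.6, 17.0 and 16.0 and then 6.05, 2.30 and 5.74. TM 2 was the lowest library for both, and their limma adjusted p were 0.356 and 0.0969.

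Chemokines, which attract leukocytes, gave the steepest changes in A. Of 13 tested, 6 rose (Cxcl2, Ccl20, Cxcl1, Cxcl5, Cxcl3 and Cxcl16), 10 had all TM values above the controls and the median was 2.22. Cxcl2 rested on 6, 0 and 6 reads in the controls and on 257, 321 and 522 with TM, a ratio of 103 (95% exact conditional Poisson interval 58.5 to 199). Ccl20, which attracts cells that carry CCR6, read 2.87, 1.91 and 1.98 and then 70.0, 95.1 and 87.0 (36.0 fold, log2 5.17, SE 0.24, limma adjusted p = 8.51e-05). Cxcl1, a neutrophil chemokine, read 3.14, 3.37 and 3.97 and then 70.3, 90.5 and 60.6 (20.4 fold, log2 4.35, SE 0.23, limma adjusted p = 0.000146). In none of these 3 genes did the groups come near each other.

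Cxcl5, Cxcl3, Cxcl1 and Cxcl2 are neighbours on chromosome 5, between 90759360 (the start of Cxcl5) and 90905938 (the end of Cxcl2), all on the + strand, and all 4 rose. Cxcl5 read 9.70, 15.2 and 17.1 in the controls and 98.3, 118 and 73.9 with TM (log2 2.79, SE 0.28, limma adjusted p = 0.00283), and Cxcl3 read 1.35, 1.09 and 1.19 and then 6.46, 7.63 and 5.98 (log2 2.37, SE 0.25, limma adjusted p = 0.00396). Cxcl16, on chromosome 11, read 5.57, 4.28 and 4.03 and then 16.5, 23.9 and 18.3 (log2 2.06, SE 0.24, limma adjusted p = 0.00699). Ccl2 (MCP-1), the main monocyte chemokine, read 9.79, 27.8 and 35.6 and then 180.1, 304 and 104, with no overlap, but with an SD of 0.883 between replicates in log2 it was not called (log2 3.06, SE 0.53, limma adjusted p = 0.0361). The 3 chemokines whose groups overlapped had changes down to -0.94.

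Of 18 cytokines and other inflammatory effectors, 3 rose (Csf2, Clec4e and Lif), 14 had all TM values above the controls and the median was 1.87. Lif, an IL-6 family cytokine, read 97.3, 109.5 and 128 in the controls and 779.6, 589 and 779 with TM (6.40 fold, log2 2.68, SE 0.21, limma adjusted p = 0.00134). Csf2 (GM-CSF) rested on 1 read in each control and 48, 78 and 64 reads with TM, a ratio of 70.9 (95% exact conditional Poisson interval 23.9 to 347). Clec4e, a receptor for damaged cells, had 1, 2 and 2 reads and then 20, 32 and 33, a ratio of 19 (interval 7.84 to 60.1). Ptgs2 (COX-2), in which A reads were many, read 1251, 2821 and 2762 and then 5566, 3172 and 3306, with no overlap and a limma adjusted p of 0.387.

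Tnf and Il1b, inflammatory cytokines, were also chosen after their values were seen. Tnf had 1, 7 and 11 reads in the A controls and 39, 77 and 79 with TM, and Il1b 3, 2 and 0 and then 22, 28 and 31. Neither passed at the 1% level, with limma adjusted p of 0.0263 and 0.0231, and for both every TM library had more reads than every control.

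NF-kB is held in the cytosol by inhibitors that are themselves NF-kB targets. Of 13 subunits and inhibitors, 3 rose (Tnfaip3, Nfkbia and Birc3), 12 had all TM values above the controls and the median was 0.97. Nfkbia (IkB alpha), the best-known inhibitor, read 48.0, 33.4 and 35.3 in the controls and 139, 158 and 159 with TM (log2 1.98, SE 0.21, limma adjusted p = 0.00396). Tnfaip3 (A20), which ends the signal, read 37.3, 39.9 and 38.3 and then 200.3, 126 and 198 (log2 2.15, SE 0.23, limma adjusted p = 0.00417), and Birc3, a ubiquitin ligase of the TNF receptor complex, read 9.25, 8.84 and 11.2 and then 31.3, 27.3 and 30.5 (log2 1.60, SE 0.20, limma adjusted p = 0.00989). Of 14 interferon-stimulated genes 0 were called, 2 had all TM values above the controls and the median was 0.16. Over all genes 0.346% were raised and 10.5% had all TM values above, so a list this short would hold few of either.

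Myeloid markers, which fibroblasts should lack, summed to a higher level in A than elsewhere. Over 12 such genes the sum was 66.7, 74.4 and 73.2 in the A controls and 44.0, 64.3 and 44.2 with TM, against 8.68 to 46.4 in the controls and 7.44 to 33.0 in the TM libraries of the other strains. Lyz2 (lysozyme M) was the largest single contributor, at 37.1, 43.1 and 41.7 in the A controls and 20.7, 33.4 and 19.6 with TM. For 9 of the 12 the highest A library lay above every library of the other strains, but not for Cd68, Laptm5 and C1qb. The same held for 4 of 12 fibroblast, 2 of 4 neural, 1 of 4 epithelial, 1 of 3 muscle and 0 of 5 endothelial markers. The share over all genes was not counted. This rule takes the highest A library, and A had the largest spread, so the count is a description without a baseline. Neural markers, mostly Nes, summed to 810.0 to 1951.0 in the A controls against 208.7 to 881.0 in other controls. With TM they summed to 635.8 to 1223.0 in A against 180.4 to 1285.0. Ptprc (CD45) lay between 0.718 and 1.67 in A against at most 1.36 elsewhere, Spi1 between 0.923 and 3.14 against 0.942, and Csf1r between 4.81 and 9.53 against 8.64. None of the 12 myeloid markers was at 0 in all A libraries. Many chemokine and cytokine genes are also used by myeloid cells, as are Clec4e, Acod1 and Tlr2. Fewer cells of a type and less RNA per cell cannot be told apart in these bulk samples, and the part of such cells in the inflammatory rise was not tested.

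The remaining raised genes belong to no list used here and have mixed roles. Pdgfb, a growth factor for fibroblasts and pericytes, read 7.81, 6.29 and 7.31 in the controls and 37.9, 35.4 and 38.5 with TM (5.18 fold, log2 2.37, SE 0.20, limma adjusted p = 0.00134). Cass4, a focal adhesion scaffold, read 0.628, 0.638 and 0.907 and then 11.6, 9.83 and 13.5 (log2 3.84, SE 0.27, limma adjusted p = 0.00106). Napb, a SNARE disassembly factor, read 4.04, 4.56 and 6.58 and then 48.6, 32.7 and 34.1 (log2 2.91, SE 0.27, limma adjusted p = 0.00184).

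Secreted factors among the raised genes included Fgf21, an ATF4-dependent hormone, with 3, 3 and 5 reads in the controls and 36, 60 and 68 with TM, a ratio of 16.7 (95% exact conditional Poisson interval 9.08 to 34.1). Adm2 and Gdnf, a peptide hormone and a neurotrophic factor, had log2 changes of 2.76 (SE 0.27) and 1.61 (SE 0.20). Acod1, which makes itaconate, had 1, 2 and 4 reads and then 28, 32 and 47, a ratio of 17.1 (interval 8.02 to 43.6). Tlr2, a receptor for bacterial lipoproteins, had the tightest replicates of all named genes, with 3.50, 3.28 and 3.46 and then 12.0, 11.9 and 11.2 (log2 1.75, SE 0.21, limma adjusted p = 0.00706).

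The sugar carrier Slc2a6 (log2 2.85), Piga of the GPI anchor pathway (2.61), the acyl-CoA thioesterase Acot2 (2.15), the GTP-binding protein Gem (1.61) and the TNF receptor adaptor Traf1 (1.90) also rose. Among regulators of transcription and RNA, Nfil3 (2.21), Taf1d (1.91), Zfp57 (1.85) and Arid5a (1.75) rose. Taf1d holds 8 annotated snoRNAs, and Snhg12, a snoRNA host gene that read 25.9, 27.8 and 25.9 in the controls and 108, 231 and 103 with TM, missed the 1% level (log2 2.37, limma adjusted p = 0.0123). Zfas1, another such host, was high in control 1 (111 against 41.7 and 38.7) and low in TM 1 (95.1 against 212 and 176), so its groups overlapped. Ch25h, which makes 25-hydroxycholesterol, read 5.30, 12.7 and 12.5 and then 55.1, 94.7 and 40.8 with no overlap and a limma adjusted p of 0.0261.

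Lists outside the UPR and inflammation showed no call in A. Over all genes 0.346% were raised and 8.18% were up by 1.5 fold, so lists this short would hold few calls. Without control 1 and TM 2, where 1.0% of all genes were raised, 1 of 19 immediate early genes was raised. In that setting 2 of 17 p53 targets and apoptosis regulators and 1 of 4 snoRNA hosts were also raised. Among 19 immediate early and AP-1 genes the median was 0.56 and 9 were up by 1.5 fold, with changes from -0.44 to 1.88. The 14 cytosolic and mitochondrial heat shock genes had a median of -0.07 and 0 up by 1.5 fold, with changes from -1.11 to 0.24. Among 17 p53 targets and apoptosis regulators the median was 0.09 and 4 were up by 1.5 fold. The 24 replication and mitosis genes had a median of -0.02, with 0 moved by 1.5 fold either way, and the 9 NRF2 targets of -0.19.

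On the lower side, 9 of 21 genes for cholesterol and fatty acid synthesis had all TM values below the controls against 10.5% of all genes, and the median was -0.50. Scd2, a desaturase, read 322, 493 and 495 in the controls and 277, 216 and 229 with TM (log2 -0.84, limma adjusted p = 0.17), and Fasn, the fatty acid synthase, read 764, 962 and 986 and then 645, 355 and 724 (log2 -0.71, limma adjusted p = 0.367). Collagens and matrix genes had a median of -0.39, which was -0.96 in TM 2 against -0.20 and -0.17 in TM 1 and TM 3 relative to the median control, and -0.12 without control 1 and TM 2. Col1a1 read 20245, 9429 and 9623 and then 8232, 5255 and 12440.0, with overlap. In glycolysis and hypoxia genes the median was -0.27, with changes from -1.77 to 0.52.

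Motifs were looked for in the promoters of the 45 called genes, of which 39 were found by symbol among RefSeq promoters (GRCm38.p6, 250 bases before to 50 after the start). The motifs, searched on both strands, were the ER stress element ERSE (CCAAT, any 9 bases, CCACG, bound by NF-Y with ATF6 or XBP1), ERSE-II (ATTGG, any 1 base, CCACG), the C/EBP-ATF element CARE (TGATGNAA, used by ATF4 and CHOP) and an NF-kB site (GGG, any 2 bases, TTTCC). They were chosen with the called genes known, so the counts are a description. A gene was counted if any of its promoters held the motif. ERSE was in 5 of the 39 (12.8%: Derl3, Ero1lb, Hspa5, Syvn1 and Zfp57), against 0.182% of the 9897 tested genes with a promoter. ERSE-II was in 1 (2.56%: Herpud1) against 0.0808%. CARE was in 8 (20.5%: Arid5a, Atf3, Chac1, Fgf21, Herpud1, Tnfaip3, Traf1 and Trib3) against 2.72%. The NF-kB letters were in 7 (17.9%: Ccl20, Cxcl1, Cxcl2, Cxcl3, Fgf21, Nfkbia and Tnfaip3) against 2.01%. Of all 32851 promoters counted singly, ERSE was in 0.119%, ERSE-II in 0.0365%, CARE in 3.97% and the NF-kB letters in 1.63%. In none of these promoters did 2 of the motifs overlap. Below are 2 genes of the folding and ERAD lists and 2 of the chemokine cluster with motif matches in capitals, because between them they hold all 4 motifs.
Hspa5 (chr2:34771840-34772139, + strand, 1 ERSE): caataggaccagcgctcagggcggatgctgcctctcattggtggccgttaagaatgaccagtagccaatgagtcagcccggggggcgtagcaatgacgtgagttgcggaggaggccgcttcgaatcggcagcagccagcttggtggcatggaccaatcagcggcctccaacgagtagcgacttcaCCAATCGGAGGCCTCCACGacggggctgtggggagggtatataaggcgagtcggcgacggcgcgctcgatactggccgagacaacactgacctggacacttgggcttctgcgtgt
Herpud1 (chr8:94386179-94386478, + strand, 1 CARE on the - strand, then 1 ERSE-II): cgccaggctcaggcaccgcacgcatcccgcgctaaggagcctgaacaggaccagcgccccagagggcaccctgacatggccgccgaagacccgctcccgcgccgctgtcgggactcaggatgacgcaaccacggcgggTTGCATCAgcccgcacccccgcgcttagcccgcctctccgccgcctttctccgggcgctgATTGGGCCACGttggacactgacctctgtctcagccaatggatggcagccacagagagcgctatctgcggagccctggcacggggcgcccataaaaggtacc
Cxcl1 (chr5:90890995-90891294, + strand, 2 NF-kB matches, the first on the - strand): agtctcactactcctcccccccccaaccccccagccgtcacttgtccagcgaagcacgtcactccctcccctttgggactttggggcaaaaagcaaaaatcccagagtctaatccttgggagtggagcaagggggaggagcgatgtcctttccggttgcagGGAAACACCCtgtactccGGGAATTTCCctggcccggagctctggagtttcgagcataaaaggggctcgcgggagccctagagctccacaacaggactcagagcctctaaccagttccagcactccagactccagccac
Cxcl2 (chr5:90903649-90903948, + strand, 2 NF-kB matches): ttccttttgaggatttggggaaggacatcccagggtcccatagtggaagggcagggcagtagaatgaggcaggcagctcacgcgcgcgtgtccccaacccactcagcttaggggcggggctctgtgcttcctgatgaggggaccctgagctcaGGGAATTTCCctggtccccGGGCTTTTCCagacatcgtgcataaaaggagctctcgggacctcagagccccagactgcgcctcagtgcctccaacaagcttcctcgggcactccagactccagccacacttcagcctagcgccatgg
The ERSE of Hspa5 begins 65 bases before the start and the ERSE-II of Herpud1 52 bases before it. The NF-kB letters of Cxcl1 begin 89 and 71 bases and those of Cxcl2 97 and 78 bases before the start. Whether any of these letters was bound in the cells was not measured.

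The question of what was larger or smaller in A than in the other 7 strains was put to a contrast of (TM minus control) in A against the mean of the same in the other strains, fitted over the 40 founder libraries with a weight per strain. Of 13197 genes, 0 were larger and 0 smaller in A (0% each) at a limma adjusted p below 0.05 and 1.5 fold. At an unadjusted limma p below 0.05 there were 36 larger and 17 smaller. Together these are far fewer than 5% of the genes, the share that calibrated p-values give with no difference. The contrast p-values thus ran high, and the single unadjusted p-values given below are descriptions. The edgeR quasi-likelihood test on recovered reads called 1 larger, Pdgfb, and 0 smaller. A per-library measure, log2 of each TM library over the median control, called 50 larger and 12 smaller, and a weight per library in place of a weight per strain called 5 of each. The median SE of the contrast was 0.297 in log2, so that for a gene of that SE a difference of 1.5 fold lay within 2 SE. A p that misses the threshold does not show that the strains responded alike.

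Of the 44 raised genes, 41 were up by 1.5 fold in each of the other 7 strains. The contrast was above 0 in 43 of the 44, with a median of 0.32, but these genes were chosen by their change in A, so the sign is not independent of the choice. For Hspa5 the change was 2.92 in A and between 2.52 (NOD) and 3.06 (NZO) elsewhere, and the contrast was 0.11 (SE 0.23). Herpud1 had a contrast of 0.25 (SE 0.17) and Ddit3 of 0.32 (SE 0.31). For Scara3 the change was -2.28 in A and between -2.03 (B6) and -1.17 (PWK) elsewhere, with a contrast of -0.63 (SE 0.25, unadjusted p = 0.018, limma adjusted p = 1).

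**Figure D3:**
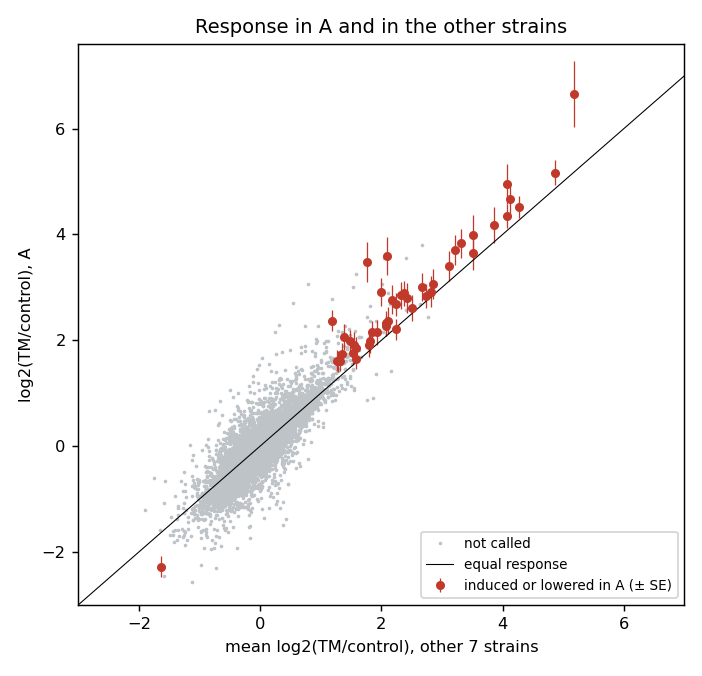
Change with TM in A, log2(TM/control), against the mean of the same in the other 7 strains, for the 12724 genes tested in A, with genes called in A in red with their SE and a line of equal response. Hspa5 (2.92 against 2.81) lies near the line, and Pdgfb (2.37 against 1.19) and Napb (2.91 against 2.00) lie above it.

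The response of single TM libraries, over the median of the controls of that strain, needs no fit. Of 11067 genes with a mean value of at least 2 in A, 12 (0.108%) had all 3 A TM libraries above all 19 TM libraries of the other strains and 7 (0.0633%) had all 3 below. Among the 44 raised genes there were 3 of the first kind, Pdgfb, Napb and Slc2a6, which are named after their values were seen. The 44 were chosen by their change in the same A libraries, so this count is not independent of the choice. Pdgfb had a log2 response of 2.36, 2.26 and 2.38 in A, 1.92 and 1.74 in B6, 1.84, 1.79 and 2.24 in NZO, and at most 1.31 in the other 5 strains, with 0.25, 0.65 and 0.31 in 129. The A libraries lay close together, and the highest NZO library came just below the lowest of them. The contrast was 1.18 (SE 0.30, unadjusted p = 0.000533, limma adjusted p = 1).

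Napb had 3.39, 2.82 and 2.88 in A and between 1.62 and 2.61 elsewhere, where NZO and B6 were next highest, and its contrast was 0.91 (SE 0.24, unadjusted p = 0.000637, limma adjusted p = 1). Slc2a6 had 2.87, 3.13 and 2.88 in A and between 1.19 and 2.71 elsewhere (contrast 0.53, SE 0.34, unadjusted p = 0.133). For Slc2a6 the highest B6 and NOD libraries came close to A, and 129 was lowest.

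**Figure D4:**
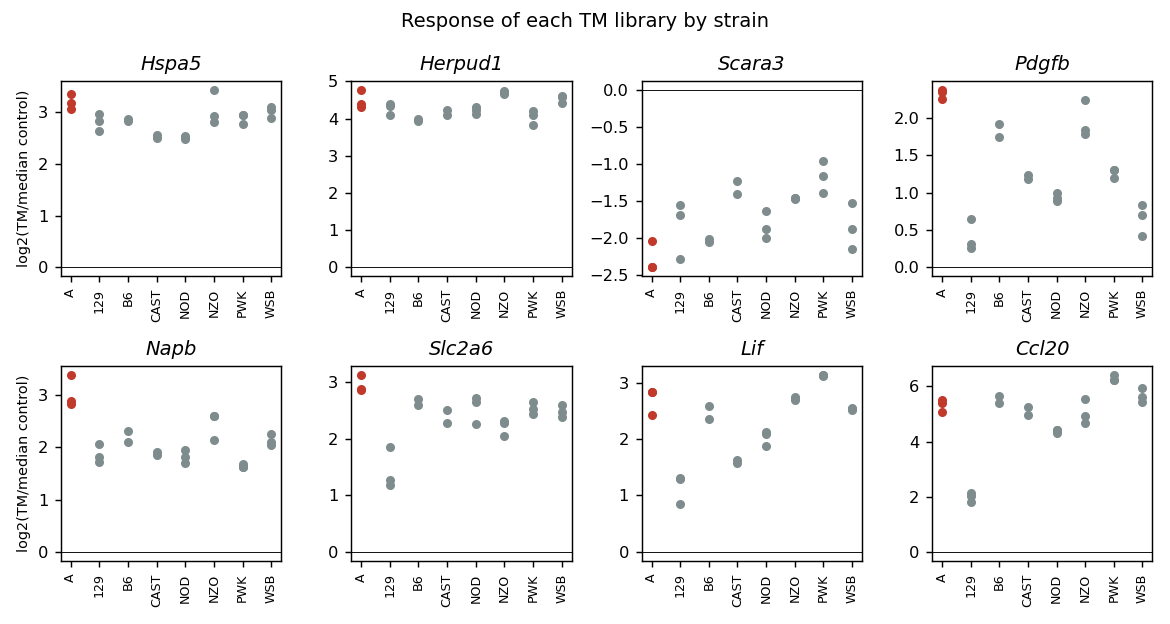
Response of each TM library, log2(TM/median control of its strain), for 8 genes, with the A libraries in red and the other strains in grey. The 3 A points lie above all others for Pdgfb, Napb and Slc2a6, among them for Hspa5, Herpud1 and Ccl20, and PWK lies highest for Lif and Ccl20.

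Of the 23 gene lists, A had the highest strain median of log2(TM/median control) for cytokines, tRNA synthetases, interferon-stimulated genes, p53 targets and snoRNA hosts, and the lowest for ER to Golgi transport, decay targets, NRF2 targets and cholesterol synthesis. Several of these ranks are not seen in the fitted contrast, whose list median was 0.00 for tRNA synthetases and interferon genes, -0.03 for p53 targets and 0.01 for ER to Golgi transport, against 0.51 for the cytokines. Over the 18 cytokines and effectors the strain median was 2.02 in A, 1.58 in PWK, 1.38 in CAST, 1.35 in B6, 1.26 in NZO, 0.53 in NOD, 0.19 in WSB and 0.12 in 129, with 1.72, 2.05 and 2.00 in the 3 A TM libraries. Some of the 18 rest on few reads in A controls 1, 2 and 3, such as Csf2 (1, 1 and 1), Il23a (1, 0 and 0) and Lcn2 (1, 0 and 0). Others, such as Lif and Ptgs2, have many. The pseudocount therefore enters these medians. For the 13 chemokines A was not the highest, with 2.11 against 2.16 in NOD and 2.13 in NZO, and for the 13 NF-kB genes A had 1.04, below NOD, NZO and PWK. These medians are a description with no test, and over all genes tested the strain medians lay between -0.04 and 0.01. For single genes the place of A varied. By strain median, Ptgs2 was lowest in A of the 8 strains (0.26). A ranked 4 from the highest for Ccl20, Cxcl1, Cxcl3, Cxcl5, Tnf and Csf1. The genes given next were nearer the upper end in A, and for several of them other strains lay above A. Lif had 2.68 in A, 2.72 in NZO and 3.10 in PWK. Csf2 had 4.95 in A, 5.34 in PWK and 4.07 in the mean of the others (contrast 0.89, SE 0.70). Cxcl2, Ccl2, Clec4e, Nfkbia and Cxcl16 had contrasts of 1.47 (SE 0.55), 1.06 (0.45), 1.71 (0.68), 0.50 (0.20) and 0.67 (0.33), with unadjusted p of 0.012, 0.0247, 0.0177, 0.0186 and 0.0525 and limma adjusted p of 1 for each. The size of several depended on the setting. The Ccl2 contrast was 0.50 to 1.45 with 1 A library left out (0.50 without control 1), 0.12 without control 1 and TM 2, and -0.07 with a weight per library. The Cxcl2 contrast was 0.67 without control 2, which had 0 reads, that of Clec4e was 0.93 with a pseudocount of 1, and that of Csf2 was 0.34 in edgeR. For Clec4e the changes in B6 (3.78) and CAST (3.99) were above that in A (3.48).

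Lcn2 and Saa3, acute-phase genes singled out after their values were seen, rest on few reads in A. Lcn2 had 1, 0 and 0 reads in the A controls and 8, 15 and 10 with TM. The size of its change in A is thus set by the pseudocount. That change is not compared between strains as a single gene, though Lcn2 is among the genes of the cytokine medians above. Saa3 had 5, 3 and 5 reads and then 13, 20 and 44, and its change was 2.27 in A, 1.98 in B6, 1.63 in PWK and -0.83 in WSB. Neither passed the 1% level in A (limma adjusted p = 0.0346 for each).

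For the ER chaperones the strain median was 1.63 in A, with 1.32 in NOD and 1.73 in WSB at the ends, and for the ATF4 and CHOP branch it was 1.39 in A, with 1.03 in NOD and 1.62 in CAST. For ERAD it was 0.65 in A, and 0.36 in NOD and 0.70 in WSB at the ends. The A median was the lowest of the 8 for the decay targets (-0.54, next B6 at -0.53) and for cholesterol and fatty acid synthesis (-0.48, next CAST at -0.40), where the 3 A libraries ran from -0.56 to -0.54 and from -0.48 to -0.41.

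**Figure D5:**
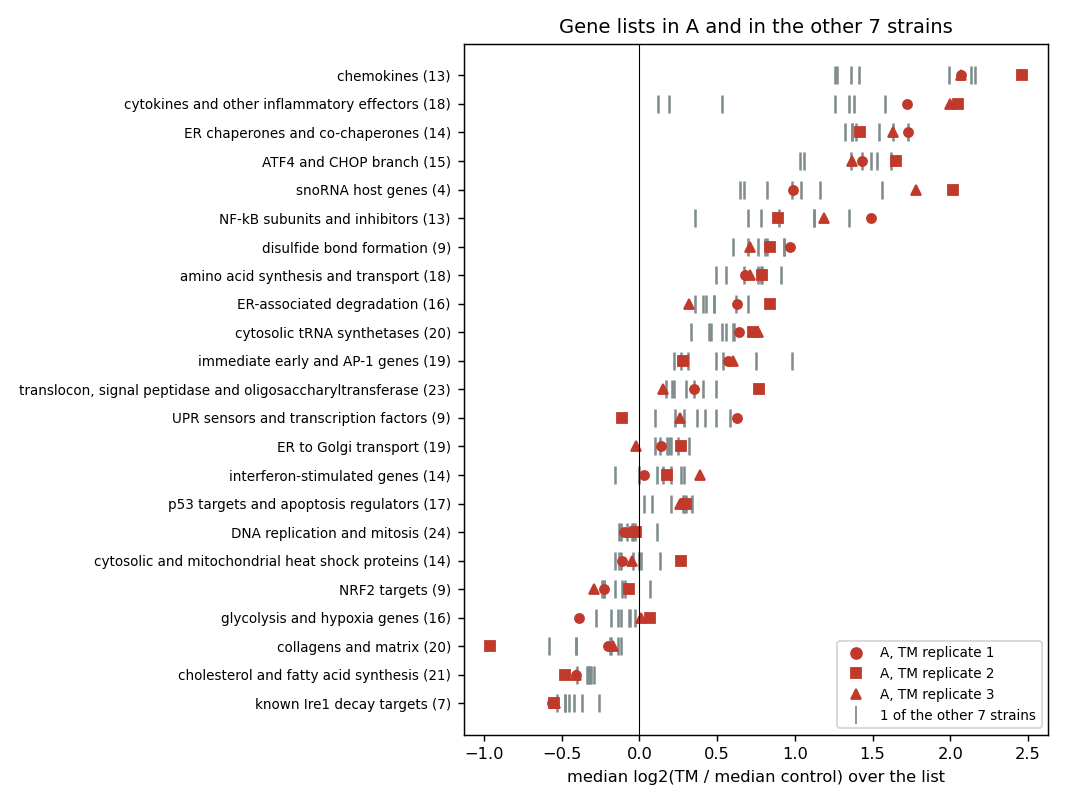
Median of log2(TM/median control) over each gene list, with the number of genes tested in brackets, for the 3 A TM libraries (red) and the medians of the other 7 strains (grey bars). The A libraries lie right of every other strain for the cytokines (1.72, 2.05 and 2.00 against at most 1.58), among them for the ER chaperones, and TM replicate 2 lies apart for collagens and matrix (-0.96). Some of the cytokine genes rest on few control reads in A.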

How the data were processed

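RNA from A and 7 other strains' MEFs was sequenced as single 100-base reads. Per the methods, each strain's reads were mapped by the authors to a genome carrying its own variants (TopHat 1.4.1, GRCm38), outlying libraries were dropped, and the remainder was rescaled. The values the authors deposited, called FPKM, are a signal: reads per gene relative to a scaled library size, not divided by length. Whole reads could be recovered from 38 of 40 founder libraries. Whether counting used strand is not given in the sources used here. Reads on genes were 9864728 to 18257862 per A library, which sets the precision of low genes, and intervals cover counting error only.

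Values were tested as log2(value + 0.1) with limma 3.58.1 (R 4.3.3; trended empirical Bayes, Benjamini-Hochberg adjustment over all genes tested) on genes of at least 0.5 in at least 2 A libraries. Fold changes are on this scale, which understates those of low genes. A gene was raised or lowered at an adjusted p below 0.01 and 1.5 fold. Differences from the other strains used 40 libraries with a weight per strain, at an adjusted p below 0.05 and 1.5 fold. edgeR 4.0.16 was run on recovered reads as an alternative. The scripts were tested on simulated data with 100 genes changed by 2 fold and 100 by 4 fold. The A fit recovered 39 and 98 of them, with 0 false calls. The strain contrast recovered 63 and 97, with 23 false calls. The simulated noise was drawn for each gene separately, so it lacks the shifts across a whole library seen in A. F1 tables, which hold no A cross, were not used.

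Named genes were the 10 largest rises, up to 5 lowered genes, up to 8 differences each way, called members (up to 6) and the 2 highest members of each list, 8 UPR genes, and the 5 most variable, largest falls and largest uncalled rises at a mean of at least 10. Members and lists were chosen with earlier results of these data known. Replicate numbers were not used as pairs in the main fit. The deviations of same-numbered A control and TM libraries, given below, cannot settle whether they were pairs. Whether same-numbered cultures shared a batch is not given by the labels. Of the genes this rule names, 2 are not reported here.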

Additional observations from a re-analysis of the deposited data

How the results depend on the processing

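The A induced genes, 44 raised, numbered 40 to 63 with a pseudocount of 1, no filter, a mean minimum of 2, median-of-ratios scaling, no trend, the edgeR test (47) or a length and GC correction. They numbered 557 in 1 fit over 40 libraries, 712 with a weight per library, 135 at 5% FDR, 126 without both control 1 and TM 2, and 5 to 32 with 1 A library left out. The A lowered genes, 1, numbered 368, 637, 13 and 25 under the same 4 settings, 2 with the length and GC correction, and 0 to 1 with 1 library left out. Genes larger in A, 0, numbered 1 with no weights (Pdgfb), 1 with a pseudocount of 1 (Ccl20), 1 with edgeR (Pdgfb), 2 without both libraries (Pdgfb and Ppef1), 5 with a weight per library and 50 with log2(TM/median control) per TM library. Genes smaller in A, 0, numbered 1 without both (Slc7a11), 5 with a weight per library and 12 with log2(TM/median control) per TM library. Both counts were 0 without any single A library. The replicate spread, 0.350, was 0.297 with a pseudocount of 1, 0.172 without both libraries and 0.274 to 0.374 with 1 left out. The cause of these shifts was not tested. Settings without both libraries, with the length and GC correction, for the replicate spread, and with a weight per library in the comparison of strains were chosen after seeing the data. The 45 called genes kept their direction and 1.5 fold in every alternative fitted to them.

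With the replicate number as a block, 21 genes were raised (20 of them among the 44), 0 were lowered, and 0 differed from the other strains either way. Same-numbered libraries correlated at -0.677, -0.271 and -0.241 in their deviations. Deviations sum to 0 within a group and carry shifts of whole libraries, so these values cannot show whether same-numbered cultures shared a batch.

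Some changes that were not called turned direction. With a weight per library Col1a1 changed by 0.21, Klk14 by 2.29, Rhox8 by 2.00 and Slc7a11 by -0.24, and the Ccl2 difference was -0.07. Without both libraries Col1a1 was at 0.09, Klk14 at 0.76 and Rhox8 at 0.41. With 1 A library left out, the change ran from -0.90 to -0.23 for Col1a1, -0.00 to 0.63 for Ern1, -3.0 to -0.04 for Klk14, -3.2 to -0.35 for Rhox8, -1.82 to 0.24 for Shroom4 and -1.88 to 0.22 for Cpeb4, the last 2 above 0 without TM 2. The Hspa5 difference from the other strains ran from -0.06 (without control 3) to 0.41, and was 0.42 without both libraries.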
